A study of Mus musculus with 6 samples.

Results

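The genes described here are 39 basic leucine zipper (bZIP) transcription factors, measured in mouse inguinal fat with and without Atf7. They were listed as possible partners of ATF7, and pairing itself was not measured. They were taken from a fixed list of ATF, CREB, AP-1, MAF, CNC and PAR factors, with Atf7 itself, its paralogs Atf2 and Creb5 and the C/EBP genes left out. All 39 were found among the 19937 genes on the array with a probe set of their own, and each was represented by 1 probe set. RNA came from inguinal white adipose tissue of male C57BL/6 mice aged 5 weeks, 3 wild-type (WT) and 3 labelled ATF7 KO. Both groups were littermates bred from Atf7 heterozygotes, with 1 mouse on each array. The labels name no other allele, treatment or agent, and they do not say which part of Atf7 the KO allele lacks. The values are log2 intensities, so a difference of 1 is a doubling.

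A bZIP factor binds DNA with a basic stretch and holds a partner through the leucine zipper next to it, so these proteins act as homodimers or heterodimers. The pairing decides which sites are bound, such as the cAMP response element (CRE) of CREB and ATF dimers or the AP-1 site of JUN and FOS dimers. In fat, CREB factors carry the cAMP signal of adrenergic nerves, AP-1 factors answer growth and stress signals, and the PAR factors follow the circadian clock. ATF7 is a CRE-binding factor of the ATF2 subgroup that can pair with JUN proteins.

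Of the 2 Atf7 probe sets, 1 was low in every library labelled KO. Probe set 10433032 was at 6.22, 6.53 and 6.49 in KO replicates 1 to 3 and at 8.95, 9.20 and 9.07 in WT (limma adjusted p 0.00658 over 34760 probe sets). The second, 10433034, was at 9.23, 9.10 and 9.42 in KO and 9.34, 9.39 and 9.52 in WT, with overlapping groups (limma adjusted p 0.730). Adipocyte markers were bright on all arrays, with Adipoq between 12.24 and 12.68 and Plin1 between 11.67 and 12.12, where the median gene was at 6.89. KO replicate 3 stood apart, at 50.25 on the first principal component (56.4% of the variance) against -17.66 to 8.98 for the other arrays. Of the 30 measured B cell and T cell markers, 29 had their lowest value in it and were lower in KO on average, the exception being Ebf1. The mean level of the 30, called the lymphocyte score, was -0.12, 0.61 and -2.46 in KO replicates 1 to 3 and 0.52 to 0.77 in WT. Skeletal muscle markers were high in WT replicate 2 (2.16), KO replicate 1 (1.38) and WT replicate 3 (0.50) and lay between -1.38 and -1.31 in the other arrays, and epithelial markers were high in WT replicate 2 (1.20, against -0.34 to -0.15). The median log2 differences of the other marker lists were 0.21 for macrophages, -0.37 for dendritic cells, -0.13 for neutrophils and erythroid cells, 0.23 for endothelium, 0.07 for stromal progenitors, 0.15 for mature adipocytes and 0.87 for thermogenic adipocytes.

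Most of the 39 factors were close in both groups. None passed adjustment over all genes (lowest adjusted p 0.622 by limma), as was true of the whole array, where 0% of genes were called. At an unadjusted p under 0.05, 4 of the 39 were higher in KO, namely Hlf, Atf3, Nfe2l2 and Nfe2l3, which is 10.3% beside 4.99% of all genes. By the same threshold 0 were lower, beside 2.48% of all genes. The lowest KO array exceeded the highest WT array for 8 of them (Atf3, Jdp2, Atf6, Creb3l2, Ddit3, Nfe2l2, Nfe2l3 and Hlf), 20.5% beside 7.96% of all genes. The reverse held for 1, Atf6b, 2.56% beside 5.97%. The median difference was 0.03 over the 39 and 0.01 over all genes, and the median size regardless of sign was 0.13 and 0.11. For 1 gene, the smallest p that an exact permutation test of 3 against 3 arrays can give is 0.1. The spread limits what could have been seen. For 26 of the 39 the 95% interval of the difference lay within 0.5 on either side of 0, and for 37 it lay within 1.

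The higher count depended on single arrays and on the marker scores. Leaving out WT replicate 1 left 1 (Atf3, with 4.01% of all genes higher) and leaving out WT replicate 3 left 1 (Nfe2l3, 2.99%). Leaving out KO replicate 1 left 2 (Hlf and Nfe2l2, 2.81%), as did leaving out KO replicate 3 (Atf3 and Hlf, 3.1%). Adding the lymphocyte score to the model left 2 (Hlf and Nfe2l3, 2.28%), and adding the skeletal muscle score left 1 (Nfe2l2, 3.07%). The share of all genes thus dropped as well in each of these settings. Without KO replicate 2 it was 5 (Atf3, Jdp2, Creb3l2, Crem and Fosl2), with Creb1 and Bach2 lower, while 10.4% of all genes were then higher and 8.47% lower.

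**Figure D1:**
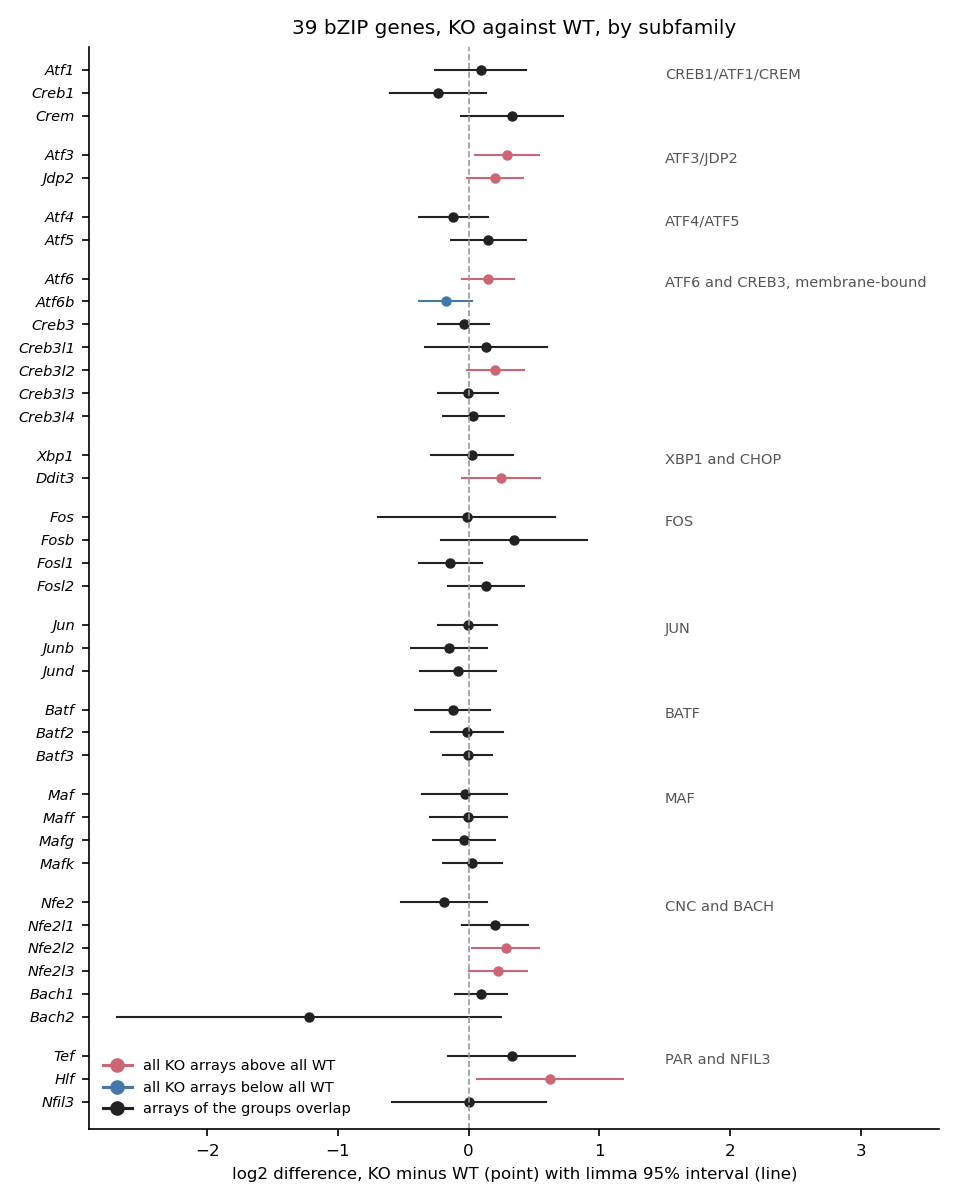
Log2 difference between KO and WT (x axis) for each of the 39 bZIP genes, grouped by subfamily, with points for limma's estimate and lines for its 95% interval. All but 2 points lie within 0.35 of 0, with Hlf at 0.62 and Bach2 at -1.22 with an interval from -2.69 to 0.25.

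ATF3 and JDP2 form a small subfamily of CRE-binding factors that repress transcription as homodimers, and Atf3 passed the unadjusted threshold while Jdp2 did not. Atf3, an immediate stress-response gene, was at 6.95, 6.84 and 6.65 in WT and at 7.16, 7.06 and 7.11 in KO. All KO arrays were above the highest WT array, and the gene was 1.23-fold higher in KO (log2 difference 0.29, SE 0.10, unadjusted p 0.0259 and adjusted p 0.622 by limma). The difference stayed between 0.21 and 0.36 over 14 alternative settings, 10 of which kept the unadjusted p under 0.05. Jdp2, whose product pairs with JUN, was at 7.26, 7.26 and 7.35 in WT and 7.55, 7.39 and 7.54 in KO. The groups again did not overlap, with a difference of 0.20 (SE 0.09, unadjusted p 0.0576), and 1 of 14 alternative settings gave an unadjusted p under 0.05. Arrays scaled by a second quantile normalization left Jdp2 with overlapping groups.

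RefSeq promoters were matched for 32 of the 39 genes (45 promoters). Among these genes, Atf3 and Jdp2 were the only ones with a TGATGNAA motif, the core of the element bound by ATF4 dimers, in the 250 bases before a RefSeq start. The motif was searched on both strands and was present in 4.44% of the 45 promoters and 3.45% of 32851 promoters of that length, so the share is near that of all promoters. The stretches that hold it are shown because both genes of the subfamily carry it, with the match in capitals. They come from RefSeq on GRCm38.p6, are written 5′ to 3′ on the gene's strand and end at the base before the start, at chr1:191183334-191183453 on the minus strand and chr12:85599296-85599415 on the plus strand.
Atf3: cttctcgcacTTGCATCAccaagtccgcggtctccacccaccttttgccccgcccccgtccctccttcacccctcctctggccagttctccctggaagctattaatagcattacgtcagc
Jdp2: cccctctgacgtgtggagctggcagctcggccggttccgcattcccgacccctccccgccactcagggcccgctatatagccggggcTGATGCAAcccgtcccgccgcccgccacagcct
The match reads on the strand opposite to the gene in Atf3, 110 to 103 bases before the start. In Jdp2 the match reads on the gene's own strand, 33 to 26 bases before a start. It is a match of letters and not a measured binding site.

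The PAR factors, proline- and acid-rich bZIP activators with daily rhythms, held the largest difference in the upward direction. Hlf was at 7.29, 7.53 and 6.76 in WT and at 7.59, 8.20 and 7.67 in KO. The lowest KO array was just above the highest WT array, and WT replicate 3 was well below the rest. Hlf was 1.54-fold higher in KO (log2 difference 0.62, SE 0.24, 95% interval 0.07 to 1.18, unadjusted p 0.0327 and adjusted p 0.622 by limma). The difference ran from 0.41 without WT replicate 3 to 0.79 without WT replicate 2. Adding the lymphocyte score to the model gave 0.76.

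Tef, the second PAR gene of the list, was at 8.14, 8.49 and 7.79 in WT and 8.48, 8.74 and 8.20 in KO. Here the groups overlapped, with a difference of 0.33 (SE 0.21, unadjusted p 0.156) that became 0.15 when WT replicate 3 was left out and 0.50 when WT replicate 2 was. Dbp, the third PAR gene and a clock output, is not among the 39 but belongs to the same subfamily. It was at 8.90, 8.43 and 8.53 in WT and 9.41, 9.81 and 9.05 in KO, which is 1.74-fold higher (log2 difference 0.80, SE 0.21, unadjusted p 0.00667). All 3 PAR genes had their highest value in KO replicate 2, whose lymphocyte score was inside the WT range. Nfil3, a repressor that binds the same D-box sequence as the PAR activators, was at 7.25, 7.97 and 7.24 in WT and 7.45, 7.17 and 7.86 in KO. Its group means were the same to 2 decimals, 7.49 and 7.49, with a 95% interval of the difference from -0.58 to 0.59.

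In a list of Dbp and clock components, 14 of 17 measured genes were positive and 3 negative, with a median difference of 0.26. Past an unadjusted p of 0.05 were 5 upward, Dbp among them (29.4%, beside 4.99% of all genes), and 0 downward. Nr1d2, a clock repressor, was at 8.64, 8.50 and 8.62 in WT and 9.04, 9.10 and 8.95 in KO, a difference of 0.44 (SE 0.09, unadjusted p 0.00158). The repressor genes Cry2, Bhlhe40 and Per3 were higher by 0.40, 0.79 and 0.56. Arntl, the activator of the clock loop, differed by -0.21 (SE 0.14, unadjusted p 0.169), and the lowest difference of the list was -0.22. All KO arrays were above WT for 5 genes of the list and below for 1, beside 7.96% and 5.97% of all genes. The count of 5 was 3 when WT replicate 1 or WT replicate 3 was left out or the lymphocyte score was added. The shares of all genes higher were then 4.01%, 2.99% and 2.28%. The count was 7 when WT replicate 2 was left out (4.06% of all genes higher) or the replicate number was a block (4.6%). The list's median stayed between 0.18 and 0.40. The labels do not say at which hour tissue was taken, and its part in these values was not tested.

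**Figure D2:**
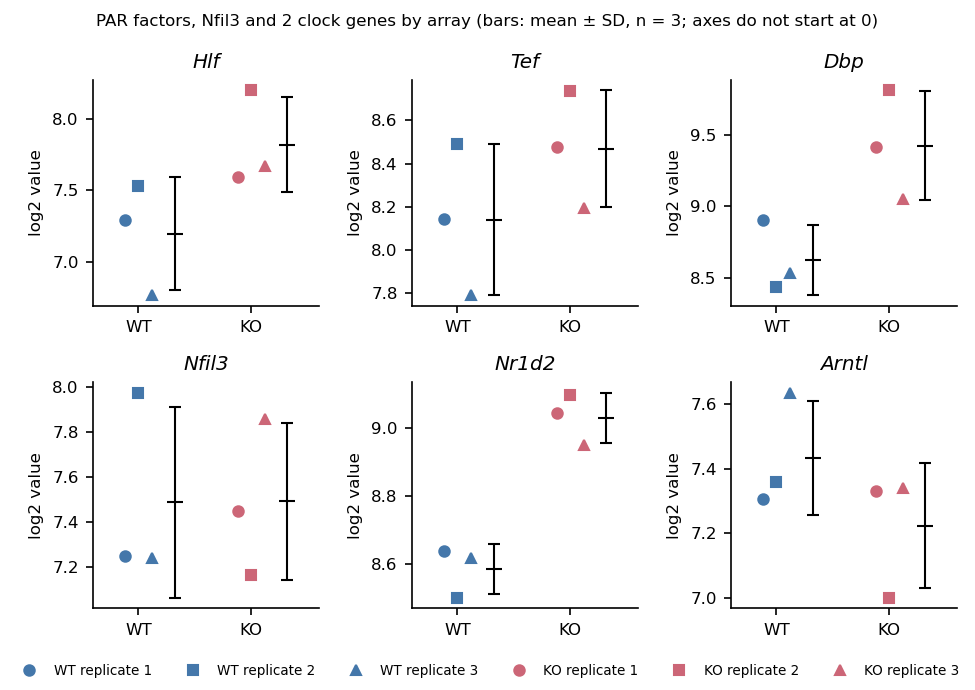
Log2 values (y axes) of Hlf, Tef, Dbp, Nfil3, Nr1d2 and Arntl in each WT and KO array, with bars for the mean and SD of 3 arrays. The KO arrays lie above all WT arrays for Hlf, Dbp and Nr1d2 and mix with them for Tef, Nfil3 and Arntl.

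Hlf and Maff were the only genes among the 32 with a promoter to hold a full CRE, TGACGTCA, the palindrome that ATF7 and CREB dimers bind. The motif was present in 4.44% of 45 promoters of these genes and in 1.55% of all 32851. Both stretches are shown, with the CRE in capitals, because one of these genes was apart between the groups and the other was not. They lie at chr11:90390918-90391037 on the minus strand and chr15:79347400-79347519 on the plus strand of GRCm38.p6, as RefSeq gives the starts.
Hlf: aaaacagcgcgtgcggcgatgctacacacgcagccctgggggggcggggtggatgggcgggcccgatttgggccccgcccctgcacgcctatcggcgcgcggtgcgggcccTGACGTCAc
Maff: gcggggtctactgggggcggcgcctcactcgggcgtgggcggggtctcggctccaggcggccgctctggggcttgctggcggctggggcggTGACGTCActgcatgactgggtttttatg
In Hlf the CRE lies 9 to 2 bases before the start, and in Maff 29 to 22. Hlf was higher in every KO array than in any WT array. Maff was a dim gene, under the median of all probe sets (6.46). It was at 6.14 ± 0.10 in WT and 6.14 ± 0.20 in KO (SD, n = 3), with a 95% interval of its difference from -0.29 to 0.29. Both starts of Tef held an E-box, CACGTG, the sequence bound by clock activators. Matches were found for 17.8% of the 45 promoters and 6.02% of all promoters, in 7 of the 32 genes with a promoter in the table. These genes were Tef, Atf1, Atf6b, Batf3, Maff, Mafg and Mafk, with differences from -0.17 (Atf6b) to 0.33 (Tef). Hlf held no E-box. The E-box is in capitals in the parts of the Tef promoters at chr15:81802523-81802572 and chr15:81811264-81811313, plus strand.
Tef, upstream start: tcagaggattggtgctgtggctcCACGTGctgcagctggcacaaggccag
Tef, downstream start: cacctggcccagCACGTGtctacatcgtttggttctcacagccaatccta

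The CNC factors, which pair with small MAF proteins on antioxidant response elements, held 2 of the 4 genes past the unadjusted threshold. Nfe2l2 encodes NRF2, the main inducer of antioxidant genes, and was at 9.53, 9.81 and 9.72 in WT and 9.88, 9.95 and 10.08 in KO. No KO array reached down to the WT range, and the gene was 1.22-fold higher (log2 difference 0.28, SE 0.11, unadjusted p 0.0339). Leaving out WT replicate 1 gave 0.20 and adding the lymphocyte score gave 0.21, with unadjusted p-values of 0.122 and 0.132. Nfe2l3, a membrane-bound relative, was a dim gene at 6.03, 5.86 and 6.07 in WT and 6.23, 6.25 and 6.16 in KO. Its groups did not overlap, with a difference of 0.22 (SE 0.09, unadjusted p 0.0458), but only 6 of 13 alternative settings kept the unadjusted p under 0.05. Nfe2l1, which controls proteasome genes, differed by 0.20 (SE 0.11) with overlapping groups. The groups of Nfe2l1 no longer overlapped after arrays were shifted to a common median or quantile-normalized again. Nfe2, the erythroid and platelet member, was at 5.55 ± 0.25 in WT and 5.36 ± 0.08 in KO. It is also the member nearest to Atf7, 17 measured genes away on chromosome 15, where Atf1, Tef, Atf4 and Maff lie 74 to 333 measured genes away.

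The NRF2 target list was mixed. Of 29 measured targets, 18 were positive and 11 negative, with 1 past the unadjusted threshold in each direction (3.45% each, beside 4.99% and 2.48% of all genes) and a median of 0.06. The sign of that median was not stable, at -0.05 with 9 positive once the lymphocyte score was added and at -0.01 without WT replicate 3 or without KO replicate 3. The median was 0.15 without WT replicate 2 (23 positive) and without KO replicate 2 (20 positive). Without WT replicate 2 the counts were 3 upward and 0 downward, beside 4.06% and 2.03% of all genes. Leaving out KO replicate 2 gave 5 upward and 3 downward, where 10.4% of all genes were higher and 8.47% lower. Tkt, an enzyme of the pentose phosphate pathway, was higher by 0.43 (SE 0.12), and Gclc, the catalytic subunit for glutathione synthesis, differed by -0.39 (SE 0.13). The classical targets Nqo1, Hmox1 and Gclm differed by 0.14 (SE 0.15), -0.22 (SE 0.15) and 0.001 (SE 0.25). Differences over the whole list ran from -1.03 to 0.46. Keap1, which holds NRF2 for degradation, differed by 0.19 (SE 0.09, unadjusted p 0.0746). The antioxidant response element, searched as TGACNNNGC on both strands, was present in 13.3% of the 45 promoters and 10.2% of all promoters. It was found for Nfe2l2, Atf1, Atf6b, Maff, Mafg and Mafk, whose differences ran from -0.17 (Atf6b) to 0.28 (Nfe2l2). In Nfe2l2 it lies 240 to 232 bases before the start, shown in capitals at chr2:75704794-75704913, minus strand.
Nfe2l2: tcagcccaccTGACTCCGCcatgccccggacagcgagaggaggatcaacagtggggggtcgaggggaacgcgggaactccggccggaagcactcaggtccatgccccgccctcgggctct

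The MAF genes, partners of the CNC factors, differed by -0.04 to 0.03. The large factor Maf was at 9.21, 9.39 and 9.18 in WT and 9.50, 9.16 and 9.03 in KO, and its difference of -0.03 took either sign among the alternatives. The small MAF genes Mafg and Mafk differed by -0.04 and 0.03, with 95% intervals from -0.27 to 0.20 and from -0.20 to 0.25. Bach1, a repressor that competes with NRF2 for these partners, was at 8.51, 8.46 and 8.49 in WT and 8.64, 8.49 and 8.61 in KO. The difference of Bach1 was 0.09 (SE 0.08).

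Bach2, a repressor that B cells and T cells express, had the largest difference of the 39 and the widest spread. It was at 8.91, 8.66 and 8.84 in WT and at 8.03, 8.73 and 5.99 in KO. KO replicate 3 was far below all other arrays, KO replicate 1 was somewhat below them, and KO replicate 2 lay inside the WT range. The group difference was -1.22 (SE 0.62, unadjusted p 0.0897), and it became -0.43 when KO replicate 3 was left out and -1.80 when KO replicate 2 was. The 3 KO values had the order of the lymphocyte score, which was -0.12, 0.61 and -2.46 in KO replicates 1, 2 and 3. With that score in the model the Bach2 difference was -0.06 (SE 0.10). In bulk tissue, fewer cells of a type cannot be told apart from less RNA per cell. The inguinal pad holds a lymph node, the labels do not say whether it was removed, and its part in the values that move with KO replicate 3 was not tested.

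Other factors shared the low value in KO replicate 3. Creb1, the widely expressed cAMP-responsive activator, was at 9.18, 9.09 and 9.15 in WT and 8.998, 9.16 and 8.56 in KO. Its difference of -0.24 (SE 0.16) was -0.06 without KO replicate 3 and 0.02 once the lymphocyte score was added. Jund and Batf had their lowest values, 8.73 and 6.48, in the same array, and their differences of -0.08 and -0.12 became 0.04 and -0.02 without it. KO replicate 3 was the highest or the lowest of the 6 arrays for 21 of the 39 genes, 53.8%, beside 52.1% of all genes.

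**Figure D3:**
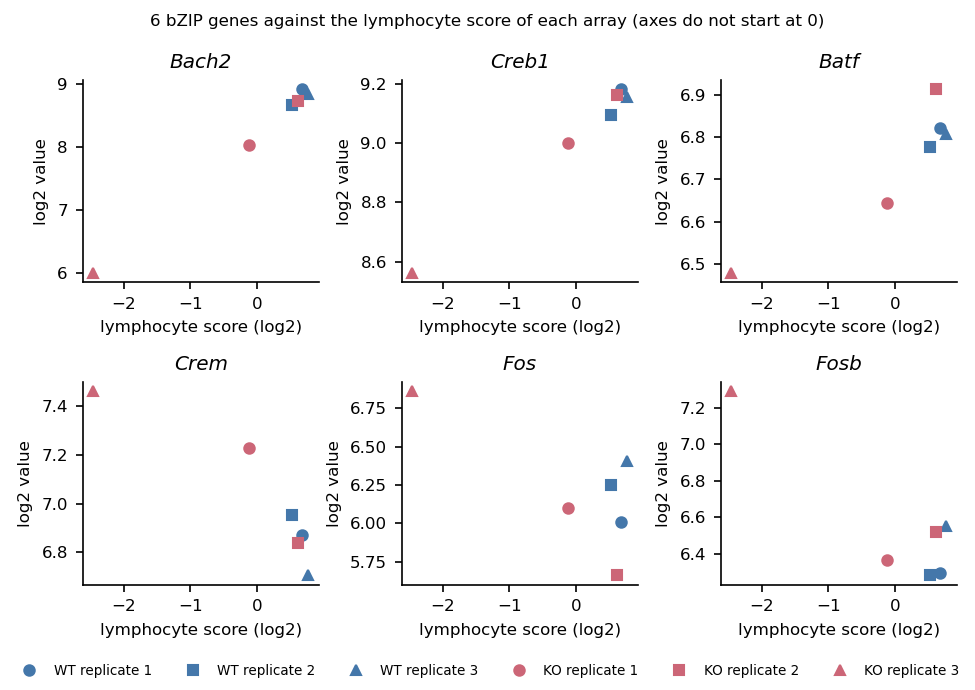
Log2 value (y axes) of Bach2, Creb1, Batf, Crem, Fos and Fosb against the lymphocyte score (x axis) of the same array, with colours for group and shapes for replicate number. KO replicate 3, at a score of -2.46, has the lowest Bach2 (5.99), Creb1 (8.56) and Batf (6.48) and the highest Crem (7.46), Fos (6.86) and Fosb (7.29).

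Within the CREB subfamily, Crem and Creb1 differed in opposite directions. Crem, which encodes activators and the early repressor ICER, was at 6.87, 6.95 and 6.71 in WT and 7.23, 6.84 and 7.46 in KO. KO replicates 1 and 3 were above all WT arrays and KO replicate 2 was not, for a difference of 0.33 (SE 0.17, unadjusted p 0.0859). The difference of Crem was 0.19 without KO replicate 3 and 0.09 once the lymphocyte score was added. Atf1, the third CRE-binding activator of this group, was at 8.67 ± 0.29 in WT and 8.76 ± 0.03 in KO.

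Genes known to respond to cAMP and CREB differed in a few members. The list had 21 measured genes, 14 of them positive, with a median of 0.08. Past the unadjusted threshold were 3 upward (14.3%, beside 4.99% of all genes) and 0 downward (beside 2.48%). Leaving out KO replicate 2 gave 7 upward and 1 downward, where 10.4% of all genes were higher and 8.47% lower. Ppargc1a, the coactivator of mitochondrial biogenesis, was at 7.60, 7.48 and 7.18 in WT and 8.13, 7.90 and 8.82 in KO (log2 difference 0.86, SE 0.24, unadjusted p 0.00883). It is also one of the 13 thermogenic adipocyte markers, of which 9 passed the unadjusted threshold upward (69.2%, beside 4.99% of all genes). Pdk4, a kinase that restrains pyruvate use, was higher by 1.37 (SE 0.39), and the orphan receptor gene Nr4a2 by 0.29 (SE 0.09). Pde4b, a phosphodiesterase that cAMP induces, differed by -0.29 (SE 0.20).

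The AP-1 genes gave no group difference that stood above the spread. Fos was at 6.01, 6.25 and 6.41 in WT and at 6.10, 5.66 and 6.86 in KO, so the KO arrays held both the lowest and the highest value. Its 95% interval ran from -0.69 to 0.66. Without KO replicate 3 the Fos difference was -0.34 (unadjusted p 0.0879), and adding the lymphocyte score gave -0.50 (unadjusted p 0.0159). Fosb was at 6.30, 6.28 and 6.55 in WT and 6.37, 6.52 and 7.29 in KO, and its difference of 0.35 (SE 0.24) was 0.07 without KO replicate 3. Fosl2, the FOS relative of fat and bone, was at 8.28, 8.18 and 8.31 in WT and 8.49, 8.15 and 8.53 in KO, with a difference of 0.13 (SE 0.12). Fosl1 differed by -0.14 (SE 0.10).

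Jun, the AP-1 subunit with which ATF2-type factors pair, was held within narrow limits. It was at 8.07, 8.05 and 8.27 in WT and 8.18, 8.08 and 8.11 in KO, with a 95% interval of the difference from -0.23 to 0.22. Jund was at 9.10, 8.98 and 9.03 in WT and 8.99, 9.15 and 8.73 in KO. Junb differed by -0.15 (SE 0.12), and all 3 JUN genes had overlapping groups. Batf3, the factor of cross-presenting dendritic cells, was at 6.99, 7.04 and 7.04 in WT and 7.01, 7.05 and 6.99 in KO, with a difference near 0 that took either sign among the alternatives. Batf and the interferon-induced Batf2 differed by -0.12 (SE 0.12) and -0.01 (SE 0.12).

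Genes downstream of AP-1 and other immediate-early genes were mixed. Of 17 measured AP-1 targets, 2 passed the unadjusted threshold upward (Ptgs2 by 0.52 and Vegfa by 0.48) and 1 downward (Plaur, -0.41). These were 11.8% and 5.88%, beside 4.99% and 2.48% of all genes, and the median was 0.02. That median was -0.02 once the lymphocyte score was added and -0.06 without KO replicate 3. With the score the counts were 3 upward and 0 downward, beside 2.28% and 1.63% of all genes. Leaving out KO replicate 2 gave 3 upward and 5 downward, where 10.4% of all genes were higher and 8.47% lower. Among 28 immediate-early genes, 7 were positive and 21 negative, with a median of -0.12. Of these, 2 were higher (Nr4a2 and Klf4, 0.39), 7.14% beside 4.99% of all genes. Another 3 were lower (Btg1, -0.39, Dusp2, -0.88, and Egr3, -0.40), 10.7% beside 2.48%. Dusp2, a phosphatase of activated lymphocytes, was at 8.23, 8.31 and 8.34 in WT and 7.49, 8.10 and 6.66 in KO, lowest in KO replicate 3. Leaving that array out gave 13 positive genes of 28 and a median of -0.02. Past the unadjusted threshold were then 2 upward and 1 downward, where 3.1% of all genes were higher and 1.9% lower. The lymphocyte score in the model gave 1 upward and 0 downward, beside 2.28% and 1.63% of all genes, and a median of -0.01. The level of the list was -0.28 in KO replicate 3 and between -0.02 and 0.10 in the other arrays.

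The membrane-bound factors, which are cut loose from the endoplasmic reticulum (ER) or Golgi to enter the nucleus, held small differences in both directions. Atf6, the sensor that induces ER chaperones, was at 8.68, 8.66 and 8.72 in WT and 8.76, 8.83 and 8.92 in KO. Its paralog Atf6b was at 8.17, 8.31 and 8.31 in WT and 8.05, 8.11 and 8.11 in KO. The pair thus separated the groups in opposite directions, by 0.15 (SE 0.09) and -0.17 (SE 0.09), with unadjusted p-values of 0.127 and 0.0833. Atf6b kept its sign in all 14 alternatives, from -0.22 to -0.15, but its groups overlapped once arrays were shifted to a common median.

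Creb3l2, a factor of secretory cells, was at 8.19, 8.21 and 8.26 in WT and 8.46, 8.30 and 8.52 in KO, all KO arrays above WT (log2 difference 0.20, SE 0.09, unadjusted p 0.0625). Creb3 was at 8.79, 8.83 and 8.76 in WT and 8.80, 8.69 and 8.76 in KO, with overlapping groups. Creb3l1, a regulator of collagen secretion, was highest in KO replicate 1 (8.9996) and lay between 8.25 and 8.56 in the other arrays. The liver and gut factor Creb3l3 and Creb3l4 were dim, at 6.58 ± 0.14 and 4.97 ± 0.08 in WT, and differed by less than 0.05.

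The remaining stress-response factors differed little. Xbp1, whose spliced form drives secretory capacity, was at 10.55, 10.81 and 10.62 in WT and 10.63, 10.52 and 10.92 in KO, a difference of 0.03 (SE 0.13) that was -0.09 without KO replicate 3. These probe sets do not tell spliced from unspliced Xbp1. Ddit3, which encodes the stress-induced factor CHOP, was at 7.41, 7.40 and 7.18 in WT and 7.42, 7.52 and 7.79 in KO. The gap between the groups of Ddit3, from 7.41 to 7.42, was narrow, with a difference of 0.25 (SE 0.13, unadjusted p 0.0880) that was 0.14 without KO replicate 3. Atf4, the translation-controlled effector of the integrated stress response, was at 7.77 ± 0.14 in WT and 7.66 ± 0.12 in KO. Atf5, its close relative, was at 8.25, 8.24 and 8.20 in WT and 8.32, 8.20 and 8.62 in KO, and its difference of 0.15 (SE 0.12) was 0.03 without KO replicate 3.

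**Figure D4:**
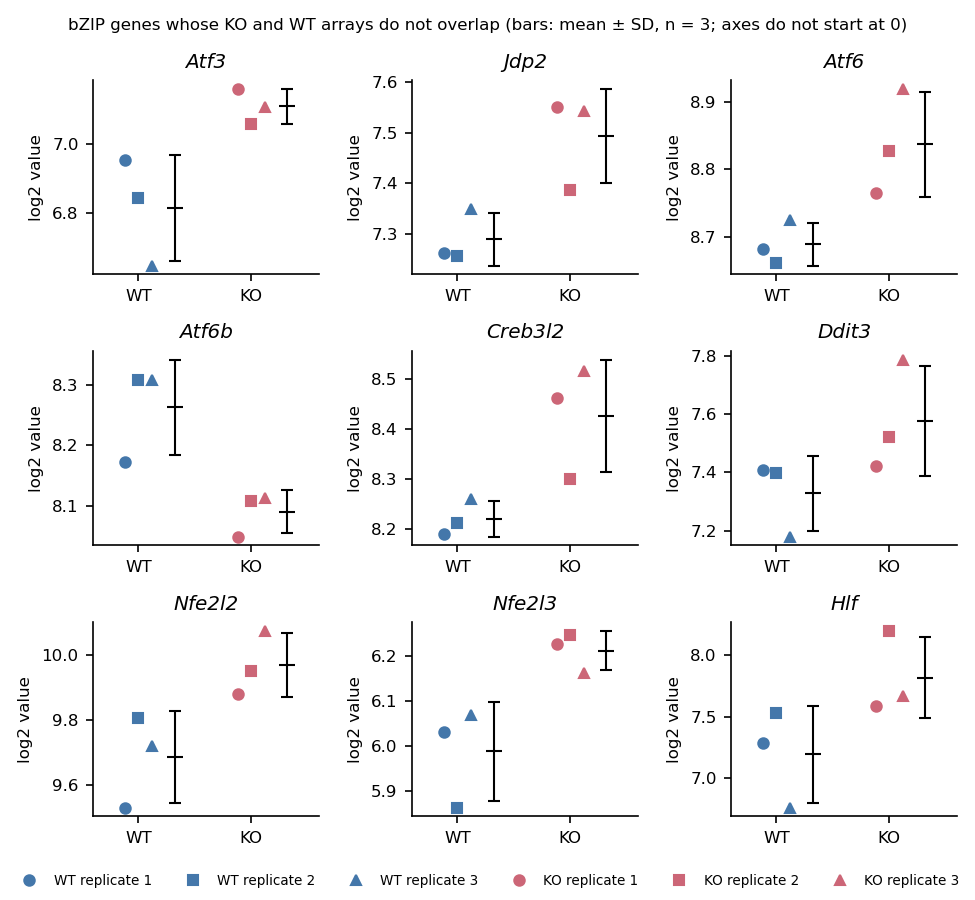
Log2 values (y axes) in each WT and KO array of the 9 bZIP genes whose groups did not overlap, with bars for the mean and SD of 3 arrays. KO lies above WT in 8 panels and below in that of Atf6b, with the narrowest gap for Ddit3 (7.41 to 7.42).

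Targets of these ER and stress factors were mixed. Of 23 measured ER chaperone and degradation genes, 8 were positive, 0 passed the unadjusted threshold upward and 1 downward (4.35%, beside 2.48% of all genes), and the median was -0.03. That gene was Syvn1, the ubiquitin ligase of ER-associated degradation (-0.26, SE 0.09). The chaperone genes Hspa5 and Hsp90b1 differed by -0.12 and -0.13 and Sdf2l1 and Pdia6 by -0.43 and 0.20. With the lymphocyte score in the model the list had 0 upward and 0 downward, beside 2.28% and 1.63% of all genes. Of 25 measured ATF4 and CHOP targets, 13 were positive, 2 passed upward (8%, beside 4.99%) and 1 downward (4%, beside 2.48%), and the median was 0.01. Adding the lymphocyte score gave 6 positive and a median of -0.05. The counts were then 0 upward and 4 downward, beside 2.28% and 1.63% of all genes. Leaving out KO replicate 2 gave 4 upward and 5 downward, beside 10.4% and 8.47% of all genes. Past the unadjusted threshold upward were Vldlr, a lipoprotein receptor (0.52, SE 0.18), and Nupr1, a stress-induced chromatin protein (0.41, SE 0.15). The proline synthesis gene Aldh18a1 was lower (-0.35, SE 0.10, unadjusted p 0.00873). Asns and Trib3, commonly read as markers of ATF4 activity, differed by 0.19 (SE 0.34) and 0.07 (SE 0.10). Differences over the ATF4 and CHOP list ran from -1.03 to 0.52, with the same lowest value as in the NRF2 list. The lists are not separate, as Nr4a2 counts in both the cAMP and the immediate-early list.

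Among 25 measured kinases and regulators that act on bZIP proteins, 1 passed the unadjusted threshold upward and 1 downward, and the median was -0.05. That is 4% in each direction, near the 4.99% and 2.48% of all genes. The genes were the p38 genes Mapk12 and Mapk11, at 0.27 (SE 0.09) and -0.80 (SE 0.28). Mapk11 was at 7.56, 7.96 and 6.76 in KO and between 8.15 and 8.37 in WT, with the KO values in the order of the lymphocyte score. Atf7ip, which encodes a binding partner of ATF7, differed by -0.28 (SE 0.13, unadjusted p 0.0734). It was at 10.18, 10.28 and 9.83 in KO and between 10.31 and 10.44 in WT, with the KO values again in the order of that score. The same order in KO held for Syvn1, Aldh18a1, Gclc, Btg1, Plaur and Pde4b. It also held for Tef and Dbp, which were higher in KO, and did not hold for Sdf2l1 and Hsp90b1. Of the 6 other measured bZIP-related genes, Dbp was higher and the rest, Mafa, Nrl, Crebzf, Crebl2 and Crebrf, differed by -0.05 to 0.12.

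**Figure D5:**
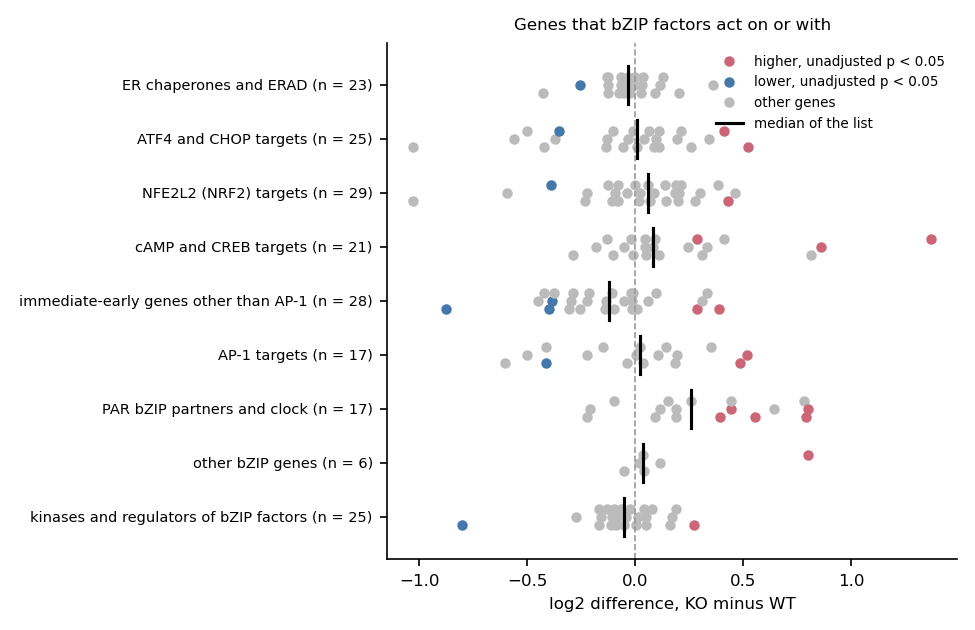
Log2 difference between KO and WT (x axis) for each measured gene of 9 lists of genes that bZIP factors act on or with, with a vertical line at each list's median. Medians run from -0.12 for immediate-early genes to 0.26 for clock genes, beside 0.01 for all genes.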

How the data were processed

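Affymetrix arrays of 3 WT and 3 KO mice, grouped by sample title, were analysed from the series' deposited value table of log2 intensities, for which RMA, affy and limma are named per the submitters' processing notes. Their versions and options are not stated in those notes. Because RMA gives arrays a common distribution, it would hide a shift of most genes. Of 34760 probe sets, 21640 had 1 gene symbol in the platform annotation. The probe set brightest on average stood for its gene, which gave 19937 genes. KO was compared with WT with limma (version 3.58.1, R 4.3.3; lmFit, then eBayes; two-sided, no filter), with Benjamini-Hochberg adjustment over all genes and a threshold of 0.05. Atf7 probe sets were tested over all probe sets. List levels are means of genes centred over the 6 arrays. Motifs were counted in the 250 bases before RefSeq starts. The 39 genes, gene lists and tests were chosen with earlier results of these data known. Values are given array by array for genes with an unadjusted p under 0.05, groups that do not overlap, a difference of at least 0.5 or the highest mean of a subfamily, and for others chosen after their values were seen. From each list up to 3 genes with the smallest p and 1 of opposite sign are named, with others chosen after their values were seen. The model was run on simulated data with known changes. There were 14 alternative settings. The number of arrays limits precision.

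Over all genes, same-numbered WT and KO arrays did not deviate together (correlations of -0.14, -0.08 and -0.04). The labels give no shared litter for a number, so no pairing was used. With the number as a block, limma's unadjusted p became 0.00746 for Hlf and 0.0174 for Tef, from 0.0327 and 0.156. It became 0.0364 for Atf3 and 0.0836 for Nfe2l3, from 0.0259 and 0.0458. The lowest adjusted p of the 39 genes was then 0.644.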

Additional observations from a re-analysis of the deposited data

How the results depend on the processing

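The count of genes past the adjusted threshold by limma was 0 higher and 0 lower (995 and 494 at an unadjusted p under 0.05), and the alternatives changed it only when probe sets were averaged per gene, to 1 lower. The 4 bZIP genes higher at the unadjusted threshold became 2 with the lymphocyte score and 1 with the skeletal muscle score as covariate, and 1 to 5 with single arrays left out. The 0 lower became 1 with the lymphocyte score (Fos, beside 1.63% of all genes) and 0 to 2 with single arrays left out. Genes with all KO arrays below WT, 1 in the main setting, were 0 after a shift to a common median (5.04% of all genes) and 1 to 7 with single arrays left out. The 7 came without KO replicate 2, where 12 lay above, beside 17.4% and 20.8% of all genes. With the replicate number as a block the count higher was 4, with Tef in place of Nfe2l3, and Atf7 probe set 10433032 was at -2.66 with a limma adjusted p of 0.0792. The lymphocyte score gave that probe set -2.69 (adjusted p 0.109), and leaving out single arrays gave -2.72 to -2.56, with adjusted p-values of 0.0745 without WT replicate 1 and 0.147 when WT replicate 3 was dropped.

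Of 265 comparisons of 19 named bZIP genes with an alternative, 220 kept direction and side of the unadjusted threshold, 20 no longer passed, 7 newly passed and 18 changed sign. The 19 had an unadjusted p under 0.05, groups apart, a difference of at least 0.5 or the highest mean of a subfamily. Over all 39 genes, 12 changed sign with the lymphocyte score and 8 without KO replicate 3. Among the 19, adding the lymphocyte score turned Creb1 to 0.0185, Atf5 to -0.0265, Xbp1 to -0.1485, Jund to 0.0949, Batf3 to 0.0137 and Maf to 0.0655. The muscle score turned Maf to 0.0517. Batf3 was 0.0199 after the shift to a common median and 0.0143 after quantile normalization. With single arrays left out, Xbp1 ran from -0.0885 to 0.1132, Jund from -0.1788 to 0.0351, Batf3 from -0.0234 to 0.0057 and Maf from -0.1654 to 0.0674. The cause was not tested.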
